A study of Saccharomyces cerevisiae with 21 samples.

Results

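The promoters of the genes for cytosolic ribosomal proteins were described as sites of Spo11-DSB formation. The members were all nuclear genes of the R64 annotation whose symbol starts with RPL (large subunit) or RPS (small subunit) and a digit, outside chromosome III. This gave 131 genes (76 RPL and 55 RPS) of 5810 protein-coding genes with a usable promoter window. The symbol rule took 132 genes with chromosome III, and the single gene there was left out because the mapping genome carries inserts on that chromosome. For each gene, reads of both strands were summed over the 600 bp upstream of the start codon (the promoter window) and separately from start to stop codon with introns (the ORF). Both sums were divided by the nuclear reads outside the rDNA and are given as HpM, hits in each 1e6 of those reads.

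Ribosomal protein genes are among the most strongly transcribed genes of growing yeast. Their promoters are wide nucleosome-poor regions bound by Rap1, Fhl1, Ifh1 and Hmo1, and they are shut down together when nutrients run out and TOR signalling falls, as happens when cells enter sporulation medium. Most of these proteins are encoded by a pair of genes, an A and a B copy left by the ancient duplication of the yeast genome, which have nearly the same coding sequence but different promoters. In meiosis Spo11 cuts mostly in nucleosome-poor promoters and stays covalently bound to the DNA ends. Each cut activates the kinase Tel1, which hinders further cutting nearby, and the transcription factor Ndt80 ends prophase, the stage during which Spo11 cuts.

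CC-seq, which sequences the DNA ends that Spo11 is bound to, was analysed in SK1 cells 6 h after induction of meiosis. There were 21 libraries: 6 of *sae2Δ*, 4 of *sae2Δ ndt80Δ*, 5 of *sae2Δ tel1Δ*, 5 of *sae2Δ ndt80Δ tel1Δ* and 1 of *sae2Δ ndt80Δ spo11-Y135F*, whose Spo11 cannot cut. Libraries of 1 replicate number were summed, leaving 18 Spo11-active replicates (5, 4, 4 and 5) and 1 control without a replicate. The labels describe MATa/alpha diploids with the markers leu2::hisG, his4X::LEU2, arg4-nsp, ura3, lys2 and ho::LYS2, and *SAE2* was replaced by a KanMX cassette in every strain, so Spo11 was not removed from the ends and all values refer to unresected breaks. *NDT80* was replaced by LEU2, *TEL1* by HYG or HphMX4, and the control carried spo11(Y135F)::KanMX4. The Spo11-active strains also carried nuc1::LEU2, and the control did not, so loss of *NUC1* and active Spo11 cannot be told apart by comparison with it.

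Total reads ranged from 1562673 to 10868175 per library. Background, the share of nuclear reads that the read density in long ORFs would give genome-wide, ranged from 11.9% to 25.7% in *sae2Δ*, from 25.8% to 40.5% in *sae2Δ tel1Δ*, from 6.55% to 62.3% in *sae2Δ ndt80Δ* and from 2.52% to 55.3% in *sae2Δ ndt80Δ tel1Δ*, and was 88.2% in the control. The 3 replicates over 50% were *sae2Δ ndt80Δ* 1 and 3 and *sae2Δ ndt80Δ tel1Δ* 4. By their library names, *sae2Δ ndt80Δ* 3 and *sae2Δ ndt80Δ tel1Δ* 4 came from 1 time course, *sae2Δ ndt80Δ* 4 and *sae2Δ ndt80Δ tel1Δ* 5 from another, and *sae2Δ ndt80Δ tel1Δ* 3 from yet another. No *sae2Δ* or *sae2Δ tel1Δ* replicate did, so comparisons are also given with each time course as a block. Between *sae2Δ tel1Δ* and *sae2Δ* such a block corrects nothing and changes only the spread estimated over all replicates. For *NDT80* deletion it takes up the time-course replicates, so the comparison rests mainly on replicates 1 and 2 of each *ndt80Δ* genotype. Higher counts with the block are therefore not counts corrected for the time course. Reads on the deleted genes, counted between 10% and 50% of each gene's length, matched every label: *NDT80* held 0 or 1 reads in the Spo11-active *ndt80Δ* libraries and 9 in the control against 20 to 124 elsewhere, and *TEL1* held at most 29 in *tel1Δ* libraries against at least 66 elsewhere.

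Ribosomal protein promoters were weaker Spo11 targets than the promoters of other genes. Averaged over the 4 Spo11-active genotypes, the median member window held 48.1 HpM, against 67.5 HpM for the 5679 other genes, a ratio of 0.71. Of the members, 25% lay under 30.6 HpM and 25% over 75.8 HpM, and the extremes, *RPS31* at 14.1 HpM and *RPL43A* at 831 HpM, lay 59-fold apart. None of the 131 members stood among the strongest 1% of all promoters, 1 stood among the strongest 5%, 2 (1.53%) among the strongest 10% and 42 (32.1%) among the strongest 50%. The weak end was not crowded either, since 8 members (6.11%) lay in the lowest 10%. Large-subunit and small-subunit genes had medians of 47.8 and 51.2 HpM.

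**Figure D1:**
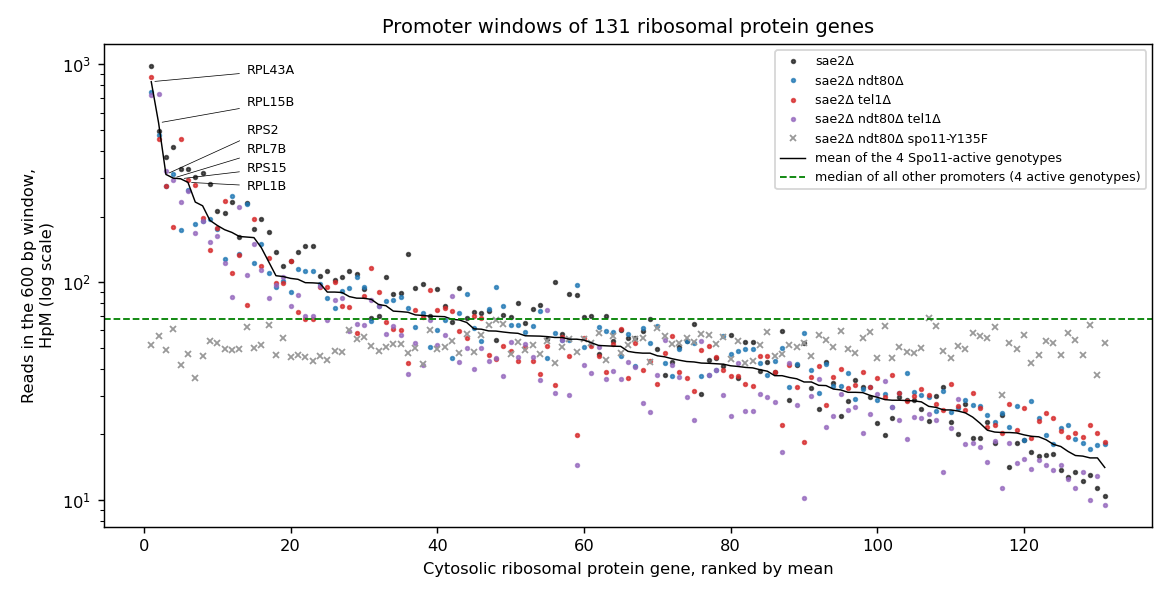
Reads in the 600 bp promoter window (HpM, log scale) for the 131 ribosomal protein genes, ranked by the mean of the 4 Spo11-active genotypes (line); points are genotype means, crosses the single control library and the dashed line the median of all other promoters, 67.5 HpM. Member levels span 14.1 to 831 HpM, while the control stays between 30.3 and 68.6 HpM at every rank.

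The lower level was not matched by shorter intergenic space. The median distance to the upstream gene was 634 bp for members and 446 bp for other genes, and 77 member windows (58.8%) lay wholly outside ORFs against 34.6% of other windows. A divergent neighbour was upstream of 73 members (55.7%, against 52.0% of other genes), and the other 58 had a neighbour in tandem. Divergent members had a median of 58.5 HpM (other divergent genes, 86.6) and tandem members one of 42.3 HpM (other tandem genes, 50.2). The gap was widest for intergenic distances of 600 to 1000 bp, where the 54 members had a median of 49.3 HpM and other genes one of 114 HpM. Of the 131 members, 101 lay below the median of other genes with the same orientation and distance class. A window shares bases with a neighbour's window in 68 members, and reads there cannot be assigned to either gene. Shared windows had a median of 69.7 HpM, and the 63 unshared windows one of 39.6 HpM. In 8 members the window is shared with another member, so some reads count for both.

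The ratio of the member median to the median of other genes was below 1 in every replicate. It was 0.89, 0.79, 0.82, 0.84 and 0.83 in *sae2Δ*, and 0.85, 0.70, 0.86 and 0.55 in *sae2Δ ndt80Δ*. It was 0.74, 0.83, 0.77 and 0.76 in *sae2Δ tel1Δ*, and 0.63, 0.62, 0.68, 0.85 and 0.40 in *sae2Δ ndt80Δ tel1Δ*. The 3 replicates with over 50% background gave the highest ratios of their genotypes, and the 2 with the least background (6.55% and 2.52%) the lowest. In the control, with 88.2% background, the ratio was 0.95. With background subtracted from windows and totals it ranged from 0.39 to 0.87 over the 18 replicates.

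All 131 windows together held 1.18% ± 0.0614 (SD, n = 5) of nuclear reads in *sae2Δ*, 0.997% ± 0.147 (n = 4) in *sae2Δ ndt80Δ*, 0.96% ± 0.0424 (n = 4) in *sae2Δ tel1Δ* and 0.854% ± 0.104 (n = 5) in *sae2Δ ndt80Δ tel1Δ*, and 0.68% in the control. The *sae2Δ* replicates (1.09% to 1.26%) lay above all *sae2Δ tel1Δ* replicates (0.90% to 1.00%), and the ranges of *sae2Δ ndt80Δ* (0.81% to 1.15%) and *sae2Δ ndt80Δ tel1Δ* (0.75% to 1.02%) overlapped. Shares depend on background too, and after its subtraction the means were 1.32%, 1.21%, 1.12% and 0.972%.

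**Figure D2:**
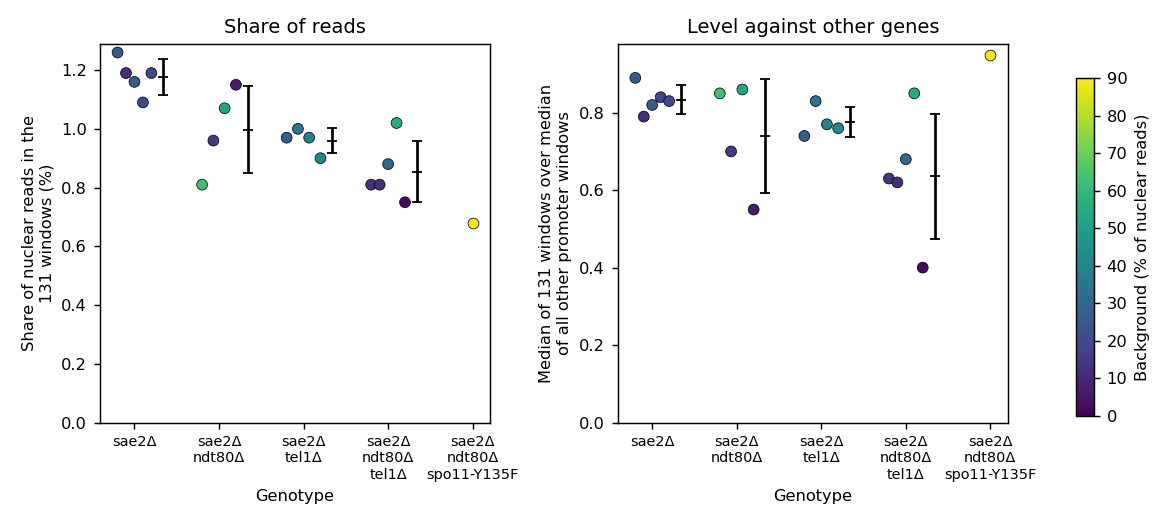
Left, percent of nuclear reads outside the rDNA that fall in the 131 promoter windows; right, median HpM of these windows divided by the median of all other promoter windows. Each point is a replicate coloured by background, bars are means ± SD, and the control is 1 library; the ratio is below 1 in all 18 Spo11-active replicates and is lowest, at 0.40, in the replicate with the least background.

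The control has no Spo11 activity, and because HpM is a share of a library's own reads its values are not a lower bound for the other libraries. Its member windows held a median of 51.2 HpM (range 30.3 to 68.6), 1.17 times its own background, with no member far above the rest. The highest were *RPL4A* at 68.6 HpM (95% Poisson interval 63.2 to 74.4) and *RPL4B* at 66.9 HpM (61.5 to 72.6), genes for a protein that reaches into the peptide exit tunnel. In *sae2Δ*, 106 members (80.9%, against 77.1% of other genes) reached at least 2 times background in all 5 replicates, and 21 (16%, against 30.2%) reached 10 times. Another 8 members stayed under 2 times background in all 5. Written per genotype, 39 members (29.8%, others 46.5%) in *sae2Δ ndt80Δ*, 68 (51.9%, others 62%) in *sae2Δ tel1Δ* and 57 (43.5%, others 53.9%) in *sae2Δ ndt80Δ tel1Δ* reached 2 times background in every replicate, counts that the replicates of high background lower.

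Levels were skewed in both sets. The mean was 76.1 HpM against a median of 48.1 HpM in members, and 153 HpM against 67.5 HpM in other genes. The 10 strongest members held 34.1% of the member signal, and such a share was not computed for other promoters. The strongest, *RPL43A* (large subunit), lies on chromosome XVI with its window at 653566 to 654165 (R64 coordinates), in the 503 bp between it and the divergent *PUF2*, an RNA-binding protein gene. Its window held 1096, 1109, 947, 834 and 922 HpM in *sae2Δ*, 427, 855, 827 and 862 in *sae2Δ ndt80Δ*, 913, 887, 939 and 761 in *sae2Δ tel1Δ*, 767, 757, 745, 712 and 646 in *sae2Δ ndt80Δ tel1Δ*, and 51.2 in the control. *RPL43A* was above 97.6% of all promoters and far above its control value in every Spo11-active replicate; *sae2Δ ndt80Δ* replicate 1 (62.3% background) was lowest, and no comparison between genotypes passed the test.

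*RPL15B* (large subunit; chromosome XIII, 510349 to 510948) was second, with 522, 545, 457, 436 and 501 HpM in *sae2Δ*, 285, 568, 321 and 724 in *sae2Δ ndt80Δ*, 489, 452, 445 and 426 in *sae2Δ tel1Δ*, and 804, 915, 774, 383 and 779 in *sae2Δ ndt80Δ tel1Δ*. Of the 5 *sae2Δ ndt80Δ tel1Δ* values, 4 exceeded every other value of this promoter, and the exception was replicate 4 (55.3% background). The difference from *sae2Δ ndt80Δ* was 0.62 (log2, SE 0.27, edgeR adjusted p = 0.0943), and it was 1.01 (adjusted p = 0.0033) without the replicates from time courses. That setting left only replicates 1 and 2 of each genotype, 285 and 568 against 804 and 915 HpM, and the 285 had 62.3% background. Within the pair of time courses that hold both genotypes, the values were 321 against 383 and 724 against 779 HpM.

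Next came *RPS2*, a small-subunit protein gene at the mRNA entry site, *RPL7B* (large subunit), *RPS15*, a protein of the small-subunit head, and *RPL1B*, the protein of the mobile stalk beside the tRNA exit. *RPS2* averaged 375 ± 59.9 HpM in *sae2Δ*, 275 ± 78.1 in *sae2Δ ndt80Δ*, 277 ± 19.4 in *sae2Δ tel1Δ* and 322 ± 8.62 in *sae2Δ ndt80Δ tel1Δ* (SD, n = 5, 4, 4 and 5). *RPL1B* averaged 330 ± 47, 264 ± 113, 294 ± 22.6 and 261 ± 50.6 HpM in the same order. Neither passed the test in any comparison; *RPL7B* and *RPS15* did and are described below. All of these windows are shared with a divergent neighbour, and for *RPS15* that neighbour is *RPP2A*, a ribosomal stalk protein gene.

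At the other end stood *RPS24A* at 15.6 HpM, *RPL14B* at 15.6 HpM and *RPS31*, which encodes a ubiquitin fusion, at 14.1 HpM. In *sae2Δ* they were at 1.14, 1.28 and 1.03 times background. *RPS31* held 11.5, 7.41, 14.3, 10.6 and 8.29 HpM in *sae2Δ* and 3.27, 4.73, 13.8, 25.5 and 0.275 HpM in *sae2Δ ndt80Δ tel1Δ*. The last 5 were lowest in replicate 5 (2.52% background) and highest in replicate 4 (55.3% background).

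The median read lay slightly farther from the start codon in members than in other genes. The median read of a member window lay 238 bp upstream of the start codon in *sae2Δ*, *sae2Δ tel1Δ* and *sae2Δ ndt80Δ tel1Δ* and 263 bp in *sae2Δ ndt80Δ*, against 213 bp for other genes in all 4 genotypes, in steps of 25 bp. In *sae2Δ* it was 263 bp in divergent members and 213 bp, the value of other genes, in tandem members. Other genes were not split by orientation. Member positions were taken after background subtraction. Averaged over genes, the *sae2Δ* profile peaked 238 bp upstream at 380 HpM per kb in members and 188 bp upstream at 432 in other genes. The peaks of members and of other genes lay at 213 and 188 bp in *sae2Δ ndt80Δ*, at 188 and 163 bp in *sae2Δ tel1Δ* and both at 188 bp in *sae2Δ ndt80Δ tel1Δ*. Of all reads from 1000 bp upstream to 500 bp downstream of the start codon in *sae2Δ*, 35.1% lay 400 to 200 bp upstream in members (30.4% in other genes), while 13.4% lay 600 to 400 bp upstream (18.5%) and 22.7% lay 1000 to 600 bp upstream (17.2%). The first 500 bp of the ORF held 8.4% in members and 10.8% in other genes. In the control that share was 33.1% in both sets, and neither profile had a promoter peak above 98.3 HpM per kb.

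**Figure D3:**
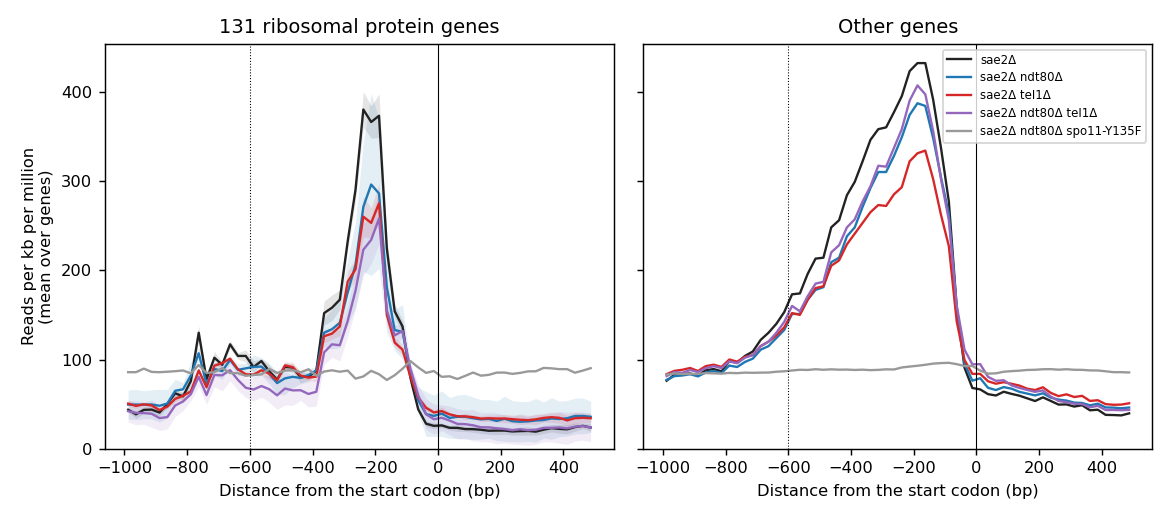
Reads (HpM per kb) by distance from the start codon (bp, 25 bp bins; the dotted line marks the end of the 600 bp window), averaged over the 131 ribosomal protein genes (left) and over other genes (right); lines are genotype means and shading is ± SD between replicates. Members in *sae2Δ* peak 238 bp upstream at 380, other genes 188 bp upstream at 432, and the control is flat.

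ORFs of ribosomal protein genes held about the read density of the long ORFs that define background, so values near 1 compare ORFs with ORFs. The median ORF held 24.6 HpM per kb in members and 26.4 in other genes, and per replicate the member median was between 1 and 1.23 times background, with *sae2Δ ndt80Δ tel1Δ* replicate 5 at 0.55. The median of other ORFs was between 1.03 and 1.96 times background, the latter in that same replicate. The highest were *RPL15B* at 102 HpM per kb, *RPL43A* at 74.6 and *RPS28A* at 58.3, whose promoters were also strong. No member ORF passed the test in any comparison, where 0.190%, 0.208%, 0%, 0% and 0% of all ORFs were called (*tel1Δ* with and without Ndt80, *ndt80Δ* with and without Tel1, and their interaction). At unadjusted p under 0.05 edgeR gave 1, 1, 0, 0 and 0 members.

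Genotypes were compared with edgeR's quasi-likelihood test over 5779 promoters, with Benjamini-Hochberg adjustment over all of them, and every adjusted p here comes from that fit unless named otherwise. The methods call replicates independent, and p values measure the spread between these libraries. Replicate groups without overlap were common: of all 5810 promoters, 31.4% lay wholly lower and 15.7% wholly higher in *sae2Δ tel1Δ* than in *sae2Δ* (45 and 17 of 131 members). For *tel1Δ* without Ndt80 these shares were 6.7% and 2.19% (14 and 0 members). For *ndt80Δ* they were 2.84% and 1.53% with Tel1 (15 and 0 members) and 4.84% and 9.47% without it (10 and 2 members). Because values are shares of a library, a fall is a fall relative to all nuclear reads and not in the number of breaks per cell.

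The first question was how loss of Tel1 changes these promoters while Ndt80 is present. Between *sae2Δ tel1Δ* and *sae2Δ*, 32 members fell (24.4%, background: 20.0% of all promoters fell) and 4 rose (3.05%, background 4.10%), and the other 95 did not pass (24.1% of all promoters were called in either direction). The median log2 ratio was -0.10 in members and -0.06 in all promoters. *RPL32*, *RPL6B*, *RPL31B* and *RPL23A* were among those that fell most, and *RPL27A*, *RPS21A*, *RPL7A* and *RPL9A* rose.

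*RPL6B* (large subunit; chromosome XII, 1028254 to 1028853, 49.5 kb from the chromosome end, divergent to the vacuolar ATPase gene *VMA6*) held 154, 137, 117, 117 and 146 HpM in *sae2Δ* and 39.1, 45.8, 42.5 and 42.8 in *sae2Δ tel1Δ*. The ranges were far apart, and the log2 ratio was -1.66 (SE 0.19, adjusted p = 2.4e-06). *RPL31B* (large subunit) fell from 99.8 ± 15.3 to 33.8 ± 4.76 HpM, by 1.56 on the log2 scale (SE 0.20, adjusted p = 9.1e-06). The strong promoter of *RPL7B* fell from 449, 464, 366, 366 and 429 HpM to 194, 167, 190 and 165, by 1.21 (SE 0.24, adjusted p = 6.3e-04).

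Rises were smaller. *RPL27A* (large subunit; chromosome VIII) went from 79.9, 66.7, 64.2, 63.7 and 67.2 HpM to 123, 118, 112 and 112, a log2 ratio of 0.76 (SE 0.20, adjusted p = 0.00667). *RPS21A* (small subunit) went from 25.8, 22.1, 26.3, 26.4 and 20.7 HpM to 28.7, 41.2, 47.0 and 42.4, a log2 ratio of 0.71 (SE 0.24, adjusted p = 0.0342). For both genes every *sae2Δ tel1Δ* replicate lay above every *sae2Δ* replicate. The call of *RPL27A* was lost with background subtracted from counts (0.76). That of *RPS21A*, at 2.51 times background in *sae2Δ*, was lost without any of *sae2Δ* replicates 1, 2 or 7 or *sae2Δ tel1Δ* replicates 2, 3 or 4 (0.62 to 0.73). It was also lost with 1000 bp windows (0.73), over bases in no ORF (0.64), with background subtracted from counts (0.67) and with the replicate number as a block (0.60).

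With each time course as a block, 50 members fell and 17 rose, against 32.3% and 14.6% of all promoters (47.0% called). Neither genotype was in a time course, and the member median stayed at -0.10. With reads in all promoter windows as library size the median of all promoters moved from -0.06 to 0.26, that of members from -0.10 to 0.22, and 12 members fell (9.16%, background 13.9%) and 7 rose (5.34%, background 13.8%). TMM factors gave medians of 0.11 and 0.07, with 25 falls (19.1%, background 17.4%) and 9 rises (6.87%, background 11.1%). With the first of these library sizes, falls were a smaller share of members than of all promoters.

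The same deletion was then compared where Ndt80 is absent. Between *sae2Δ ndt80Δ tel1Δ* and *sae2Δ ndt80Δ*, 39 members fell (29.8%, background 16.8%) and 4 rose (3.05%, background 6.78%), and 88 did not pass (23.5% of all promoters were called). The median log2 ratio was -0.41 in members and -0.24 in all promoters. These libraries are not those of the comparison above, and 23 members fell in both, 71.9% of the 32 and 59% of the 39. For all promoters, 615 fell in both, 53.2% and 63.5% of the corresponding lists. Among the 23 were *RPL10*, needed for the subunits to join, *RPL39*, which lines the end of the exit tunnel, and *RPL40A*, a ubiquitin fusion.

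*RPL6B* held 66, 80.8, 72.7 and 84.5 HpM in *sae2Δ ndt80Δ* and 31.2, 26.2, 34.9, 56.1 and 41.8 in *sae2Δ ndt80Δ tel1Δ* (log2 ratio -1.0, SE 0.19, adjusted p = 5.2e-04). The ranges did not overlap, and the call was lost within the pair of time courses that hold both genotypes (-0.69).

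Of the 4 that rose, *RPS6A*, whose protein is phosphorylated downstream of TOR, went from 48.3, 49.5, 54 and 27.5 HpM to 103, 110, 98.2, 78.9 and 39.8 (log2 ratio 0.94, SE 0.23, adjusted p = 0.00458). *RPS7B* (small subunit) went from 48.6, 48.2, 50.4 and 32 HpM to 89.3, 88.8, 94.6, 56.3 and 42.3 (0.73, SE 0.21, adjusted p = 0.0144). In both genes the lowest replicate on each side came from the same time course, and the groups overlapped through it. Within the pair of time courses that hold both genotypes neither passed (0.54 and 0.28), nor in a fit of these genotypes alone (0.94 and 0.73). *RPS7B* was also lost with 1000 bp windows (0.56) and with reads in all promoter windows as library size (0.59).

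*RPL4B* fell by 1.07 (SE 0.28, adjusted p = 0.00691) from 65.8, 64.7, 60.3 and 188 HpM to 32.7, 29.9, 49.5, 49.5 and 63.5, and the call was lost without the 188 of *sae2Δ ndt80Δ* replicate 4 (-0.50).

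As blocks, the time courses gave 75 members that fell and 8 that rose, against 38.9% and 14.7% of all promoters (53.7% called). Within the pair of shared time courses, 23 fell (17.6%, background 13.9%) and 0 rose (background 4.62%). Without *sae2Δ ndt80Δ tel1Δ* replicate 4, 63 fell and 5 rose (48.1% and 3.82%, backgrounds 25.9% and 11.4%).

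Part of the fall lay on the left arm of chromosome II, which carries *TEL1* itself. Of 112 promoters tested there, 60 (53.6%) fell with Ndt80 present and 67 (59.8%) without it, and within 30 kb of the middle of *TEL1* 16 of 25 (64%) and 20 of 25 (80%) fell, with median log2 ratios of -1.67 and -2.07. The 4 members on this arm, *RPL23A*, *RPL32*, *RPS8A* and *RPL19B*, lie 5.8, 9.5, 34.2 and 112.9 kb from *TEL1*, and all fell in both comparisons. The other 127 members gave 28 falls (22%) and 35 falls (27.6%), where 20.0% and 16.8% of all promoters fell.

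*RPL32* (large subunit; chromosome II, 45378 to 45977, divergent to the Mediator subunit gene *ROX3*) held 96.3, 88.5, 80.2, 75.9 and 94.3 HpM in *sae2Δ* and 66, 86, 92.8 and 145 in *sae2Δ ndt80Δ*. It held 13.5, 19, 25.7 and 21 HpM in *sae2Δ tel1Δ* and 6.54, 7.52, 20.7, 28.8 and 9.07 in *sae2Δ ndt80Δ tel1Δ*. No *tel1Δ* value overlapped a value with Tel1, and the log2 ratios were -2.15 (SE 0.33, adjusted p = 5.4e-05) and -2.74 (SE 0.33, adjusted p = 4.7e-06). In a window of 300 bp they were -0.22 and -1.22 and did not pass.

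*RPL23A*, a large-subunit protein at the subunit interface (chromosome II, 60740 to 61339), held 59.7, 58.4, 47.8, 46.4 and 49.5 HpM in *sae2Δ* and 14, 20.8, 22 and 16.9 in *sae2Δ tel1Δ*. It held 49.5, 43.1, 60.3 and 79.8 HpM in *sae2Δ ndt80Δ* and 3.99, 4.73, 15.5, 26.2 and 0.55 in *sae2Δ ndt80Δ tel1Δ*. Again no ranges overlapped, with log2 ratios of -1.52 (SE 0.46, adjusted p = 0.0186) and -2.49 (SE 0.46, adjusted p = 5.2e-04). The first was lost without *sae2Δ tel1Δ* replicate 1 (-1.40) or 4 (-1.48), with 1000 bp windows (-1.0) and with reads in all promoter windows as library size (-1.19).

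**Figure D4:**
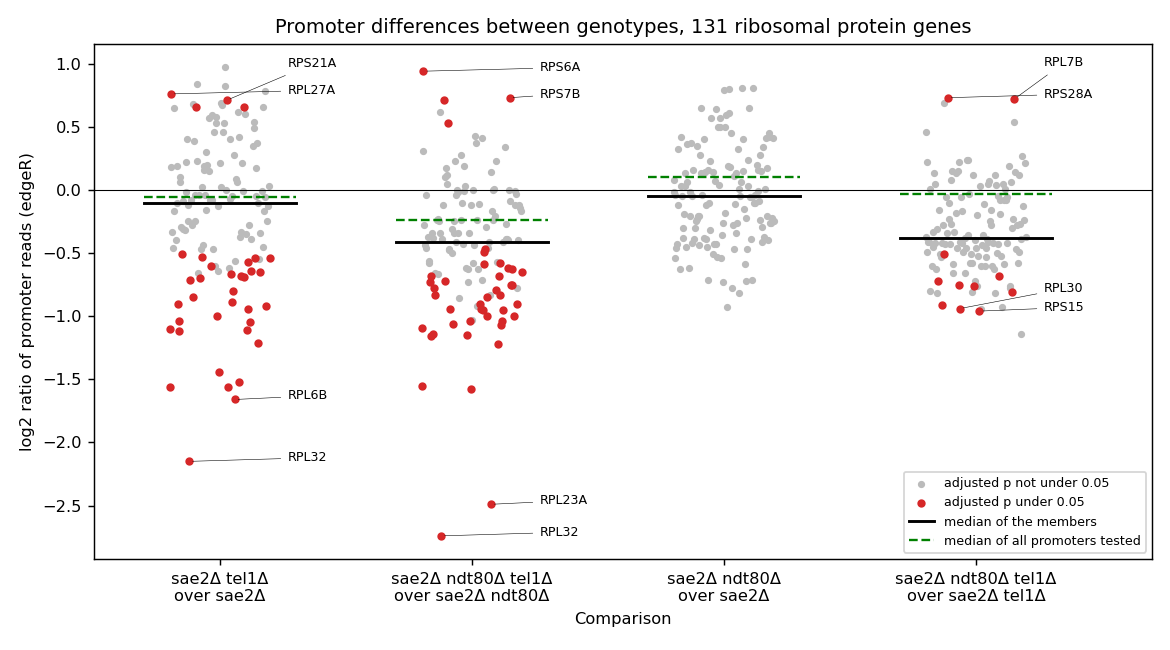
Log2 ratio of promoter reads (edgeR) for each of the 131 ribosomal protein genes in 4 comparisons; red points passed an adjusted p of 0.05, black lines are member medians and dashed lines medians of all promoters. Falls outnumber rises in both *tel1Δ* comparisons (32 to 4 and 39 to 4), no point is red in the third, and the member median of the last is -0.38 against -0.03.

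Each window was tested again relative to the reads within 25 kb on either side of it. Calls for *tel1Δ* became fewer in members (27.5% to 7.63% with Ndt80, 32.8% to 0.763% without it). They did so in all promoters too (24.1% to 8.69% and 23.5% to 1.73%). A missing call does not show that a promoter followed its surroundings. With Ndt80 present 7 members fell (background 6.47%) and 3 rose (background 2.21%) relative to their surroundings, where 8.69% of all promoters were called. Without Ndt80 1 member fell and 0 rose (backgrounds 0.571% and 1.16%, or 1.73% called). The 7 were *RPL6B* (-1.31, adjusted p = 0.00661), *RPL32* (-1.31, adjusted p = 0.0137), *RPL31B* (-1.16, adjusted p = 0.00703), *RPS4B*, *RPS1B*, *RPL16A* and *RPS24B*, and the 3 were *RPS22B*, *RPS21A* and *RPL9A*. *RPL23A* did not differ detectably from its surroundings (-0.19, adjusted p = 0.713). The 1 without Ndt80 was *RPL11A* (-0.77, adjusted p = 0.0055). With each time course as a block the counts were 30 falls and 22 rises (backgrounds 25.7% and 14.6%, 40.3% called) with Ndt80, and 19 and 2 (7.58% and 6.59%, 14.2% called) without it. Without single replicates the first count of 10 went to between 2 and 6 (*sae2Δ* 1, 2, 3 or 7, or any of *sae2Δ tel1Δ*) or 16 (*sae2Δ ndt80Δ* 4), where between 0.813% and 5.55% and 15.5% of all promoters were called, and the second count of 1 to 3 (*sae2Δ ndt80Δ* 1), 9 (*sae2Δ ndt80Δ tel1Δ* 4) or 2 (*sae2Δ ndt80Δ tel1Δ* 5), with backgrounds of 2.75%, 6.28% and 2.51%.

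Deletion of *NDT80* holds cells in prophase. With Tel1 present it gave no call: 0 members and 0% of all promoters passed in edgeR, with 26 members at unadjusted p under 0.05 (19.8%, background 12.2%) and 5 falls in DESeq2 (3.82%, background 1.47%). The median log2 ratio was -0.05 in members and 0.10 in all promoters. *RPS15* held 343, 310, 344, 302 and 349 HpM in *sae2Δ* and 116, 209, 237 and 132 in *sae2Δ ndt80Δ*, without overlap, but did not pass (-0.93, SE 0.25, adjusted p = 0.192). With each time course as a block 37 members fell and 1 rose, against 9.83% and 1.77% of all promoters (11.6% called), and without *sae2Δ ndt80Δ* replicate 2 4 members fell (3.05%, background 2.28%).

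Without Tel1, members lay lower relative to other promoters once *NDT80* was deleted. Between *sae2Δ ndt80Δ tel1Δ* and *sae2Δ tel1Δ*, 9 members fell (6.87%, background 3.46%) and 2 rose (1.53%, background 9.67%), where 13.1% of all promoters were called. The median log2 ratio was -0.38 in members and -0.03 in all promoters, and 101 of the 131 members lay below the median of all promoters. Falls were called at *RPS15*, *RPL30*, *RPL25*, *RPS19A*, *RPS19B*, *RPL14A*, *RPL19B*, *RPS9A* and *RPS21B*, and rises at *RPS28A* and *RPL7B*.

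*RPS15* held 492, 492, 442 and 391 HpM in *sae2Δ tel1Δ* and 221, 256, 180, 363 and 145 in *sae2Δ ndt80Δ tel1Δ* (log2 ratio -0.96, SE 0.25, adjusted p = 0.0126). *RPL30*, whose protein inhibits splicing of its own transcript, held 242, 251, 244 and 209 HpM and then 106, 110, 110, 192 and 98.1 (-0.94, SE 0.22, adjusted p = 0.00799). In neither gene did the groups overlap, and in both the replicate with 55.3% background lay nearest to *sae2Δ tel1Δ*. *RPL30* faces another member, *RPL24A*, across 1156 bp.

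*RPS28A* (small subunit; chromosome XV) rose from 142, 162, 126 and 101 HpM to 267, 208, 269, 161 and 198 (0.73, SE 0.22, adjusted p = 0.0313), and also relative to *sae2Δ ndt80Δ* (0.71, SE 0.22, adjusted p = 0.0229). *RPL7B* rose from 194, 167, 190 and 165 HpM to 302, 298, 327, 219 and 329 (0.72, SE 0.24, adjusted p = 0.0463). In *RPL7B* the groups did not overlap; in *RPS28A* they overlapped at 161 and 162. Both calls sit at the threshold: *RPS28A* lost the first without any of 5 single replicates (0.62 to 0.77: *sae2Δ ndt80Δ tel1Δ* 1 or 3, *sae2Δ tel1Δ* 1, 3 or 4) and the second without any of 4 (0.58 to 0.68: *sae2Δ ndt80Δ* 1 or 3, *sae2Δ ndt80Δ tel1Δ* 1 or 3). The first was also lost with a 300 bp window (0.78), with background subtracted from counts (0.86) and with the replicate number as a block (0.77). The second was also lost with a 300 bp window (0.71), with background subtracted from counts (0.83), in a fit of these genotypes alone (0.71), within the pair of shared time courses (0.19) and without the 3 replicates of highest background (0.57), and its groups overlapped, with 194 HpM in *sae2Δ ndt80Δ* replicate 4 against 161 HpM in *sae2Δ ndt80Δ tel1Δ* replicate 4. *RPL7B* lost its call without any single replicate of *sae2Δ*, of *sae2Δ tel1Δ* or of *sae2Δ ndt80Δ tel1Δ* other than 4 (0.68 to 0.76), as it did with a 300 bp window (0.76), over bases in no ORF (0.76), with background subtracted from counts (0.81) and with a block for replicate number (0.73) or library series (0.54).

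These counts changed with the libraries that entered. Blocking on each time course, 77 members fell and 6 rose, against 35.0% and 17.8% of all promoters (52.8% called), with medians of -0.58 and -0.23, and without *sae2Δ ndt80Δ tel1Δ* replicate 4, 49 members fell and 4 rose (37.4% and 3.05%, backgrounds 12.8% and 16.5%). Without any 1 of the other 4 replicates of that genotype, of the 4 of *sae2Δ tel1Δ* or of *sae2Δ* 2, 5 to 7 were called, where between 5.93% and 11.1% of all promoters were. With reads in all promoter windows as library size 7 fell and 3 rose (5.34% and 2.29%, backgrounds 7.28% and 10.8%), the medians of all promoters moving to -0.17 here and to 0.33 for *NDT80* deletion with Tel1. Relative to their surroundings 2 members fell, *RPS9A* and *RPL11A*, and 0 rose (backgrounds 0.606% and 2.11%, 2.72% called), and with the block 61 fell and 2 rose (18.3% and 12.5%, 30.8% called). The count of 2 was 33 without *sae2Δ ndt80Δ tel1Δ* replicate 4 (15.4% of all promoters called), 7 without *sae2Δ ndt80Δ* replicate 4 (8.25%), and 0 or 1 without any other single replicate of *sae2Δ tel1Δ* or *sae2Δ ndt80Δ tel1Δ*.

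The interaction, which tests whether the *NDT80* difference depends on Tel1, was called for 0 members (background 0.0346%) in edgeR, with 22 members at unadjusted p under 0.05 (16.8%, background 16.2%). DESeq2 called 7 members, all higher (5.34%, background 8.46%), and 0 lower. With time-course blocks most calls went the other way: 42 members were lower and 12 higher, against 21.6% and 17.0% of all promoters (38.6% called). Without *sae2Δ ndt80Δ tel1Δ* replicate 4, 12 were lower and 3 higher (9.16% and 2.29%, backgrounds 5.28% and 7.39%). Relative to surroundings it was called for 0 members (background 0.0173%) in edgeR, and with the block 23 were lower and 6 higher (11.0% and 12.2%, 23.2% called). In all, 61 members (46.6%) were called in at least 1 of the 4 comparisons, against 40.1% of all promoters.

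The 2 copies of a gene often had unlike promoters. Among 56 pairs (112 members, the other 19 being single genes) the median difference between copies was 0.76 on the log2 scale, or 1.69-fold, and 23 pairs were over 2-fold apart. The A copy was higher in 25 pairs and the B copy in 31, and in 31 pairs 1 copy was higher in all 18 replicates. In the control the median difference was 0.18 and 0 pairs were over 2-fold apart. Levels of the copies did not run together across pairs, with Pearson's r of -0.06 and Spearman's rho of 0.03 over 56 pairs measured in the same libraries. Where 1 copy had a divergent and the other a tandem neighbour, the divergent copy was higher in 23 of 28 pairs. A divergent copy's window can share bases with its neighbour's window, and reads there cannot be assigned to either gene. Shared member windows had a median of 69.7 HpM and unshared ones 39.6 HpM. Not all pairs are independent. *RPL13A* and *RPS16B* face each other across 634 bp on chromosome IV (99.2 and 99.4 HpM). *RPL13B* and *RPS16A* do so across 720 bp on chromosome XIII (70.7 and 69.6 HpM). The *RPL13* and *RPS16* pairs therefore hold largely the same reads. *RPL13A* and *RPS16B* were also counted separately among the falls of both *tel1Δ* comparisons.

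**Figure D5:**
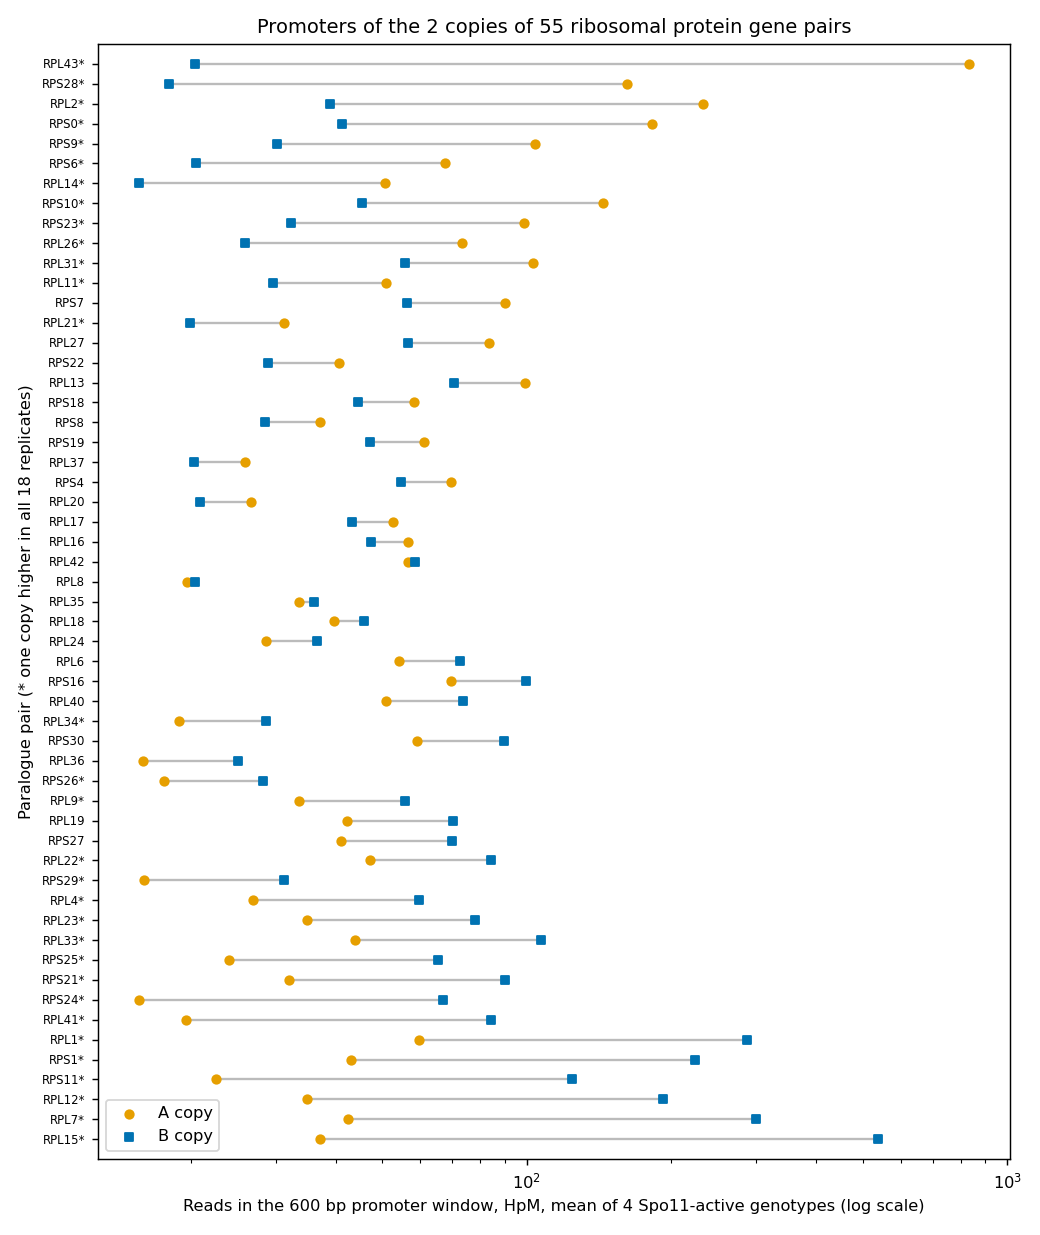
Promoter reads (HpM, mean of the 4 Spo11-active genotypes, log scale) of the A copy (circles) and B copy (squares) of all but 1 of the 56 pairs, ordered by their ratio; asterisks mark the 31 pairs in which 1 copy was higher in all 18 replicates. *RPL43* is widest in favour of A (831 against 20.4 HpM) and *RPL15* in favour of B (37.2 against 538 HpM), as plotted, without background subtraction.

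*RPL43A*, at 831 HpM, stood 40.8-fold above *RPL43B*, at 20.4 HpM, with log2 ratios from 3.80 to 6.63 over the 18 replicates. *RPL43B* held 13.1, 14.1, 15.1, 13.6 and 14.6 HpM in *sae2Δ*, 1.48 times background, although 2653 bp separate it from the divergent *IME1*, the regulator of entry into meiosis. *RPL15B* stood 14.4-fold above *RPL15A* (37.2 HpM), and *RPS28A* (162 HpM) 9.04-fold above *RPS28B* (18 HpM), whose protein binds its own transcript and whose upstream neighbour is the meiotic axis gene *RED1*. Control values within these pairs differed by 0.03, 0.31 and 0.10 on the log2 scale, with A below B in each. The weaker copies lie near background, so subtraction widens the differences, to 7.0 for *RPL43* and 5.26 for *RPS28* and to -4.44 for *RPL15* (log2, A over B). After subtraction *RPS24* (15.6 and 67 HpM) was wider in favour of B, at -5.56 against -2.10 without it.

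*RPL42* was among the pairs most alike, at 56.7 and 58.5 HpM. In this pair, genes in which mutations give cycloheximide resistance, the A copy held 65.2 ± 9.11 HpM in *sae2Δ* and 50.5 ± 2.85 in *sae2Δ tel1Δ* (-0.37, adjusted p = 0.109) and the B copy 69.2 ± 10.9 and 48.1 ± 5.02 (-0.53, adjusted p = 0.0359). The call of *RPL42B* was lost without any single replicate of *sae2Δ* other than 1 or of *sae2Δ tel1Δ* (-0.58 to -0.43). It was also lost with reads in all promoter windows as library size (-0.20), 1000 bp windows (-0.34), TMM factors (-0.36), DESeq2 (-0.42), bases in no ORF (-0.53) and the replicate number as a block (-0.54).

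Across pairs, loss of Tel1 with Ndt80 present was called in both copies of 6 pairs, in 1 copy of 19 and in neither of 31, and without Ndt80 in 2, 33 and 21. The call rates were 27.5% and 32.8% of members and 24.1% and 23.5% of all promoters. Whether the splits differ from independent calls of the copies at these rates was not tested. Copies went opposite ways in *RPL27* and *RPL7*, where A rose and B fell. *RPL27A* rose as given above, while *RPL27B* fell from 80.2, 76.9, 88.8, 58.9 and 71.3 HpM to 36, 51.6, 39.8 and 45.8 (-0.80, SE 0.17, adjusted p = 0.00143). *RPL7A* rose from 28, 27.2, 32.7, 37.5 and 27.9 HpM to 47.7, 47.6, 52 and 46.9 (0.66, SE 0.18, adjusted p = 0.00722), while *RPL7B* fell. In these 4 promoters the groups did not overlap, as in 31.4% of all promoters for falls and 15.7% for rises. For *NDT80* deletion without Tel1 the counts were 1 pair (*RPS19*), 6 and 49, where 8.4% of members and 13.1% of all promoters were called.

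Lists of related genes gave a frame for these levels. For the calls below, 4.10% of all promoters rose and 20.0% fell for *tel1Δ* with Ndt80, and 6.78% and 16.8% without it. Mitochondrial ribosomal protein genes (42) had a median of 67.7 HpM, with 4 rises and 11 falls for *tel1Δ* with Ndt80 and 3 and 10 without it. The 6 stalk and associated genes had a median of 95.4 HpM, and *RPP0*, the base of the stalk, fell in both (-0.73, adjusted p = 0.00852, and -0.55, adjusted p = 0.0455). Ribosome biogenesis genes (28) had a median of 58.6 HpM, with no call with Ndt80 and 3 rises and 6 falls without it. The 14 glycolytic and translation factor genes that Rap1 also binds had a median of 213 HpM, with 1 rise and 3 falls and then 5 falls.

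Among 10 regulators of ribosomal protein genes the median was 65.4 HpM, from 23.4 HpM at *SFP1*, an activator that leaves the nucleus when nutrients run out, to 705 HpM at *TOR1*, the kinase. With Ndt80 present *RAP1* fell (-0.89, SE 0.27, adjusted p = 0.0177). Without it *CRF1*, the corepressor (1.02, SE 0.21, adjusted p = 0.00141), and *HMO1* (1.20, SE 0.27, adjusted p = 0.00262) rose, and *IFH1*, the coactivator (-1.29, SE 0.22, adjusted p = 2.5e-04), fell. For *NDT80* deletion 0 of the 10 passed with Tel1 present, and without Tel1 *RAP1* (1.24, SE 0.27, adjusted p = 0.00564) and *CRF1* (0.88, SE 0.21, adjusted p = 0.00868) rose and *GCR1*, an activator of glycolytic genes, fell (-0.57, SE 0.17, adjusted p = 0.0285). Of all promoters, 0% were called with Tel1 present, and 9.67% rose and 3.46% fell without it. Replicates of *sae2Δ ndt80Δ tel1Δ* varied widely at *HMO1* (668 ± 284 HpM, SD, against 292 ± 74.6 in *sae2Δ ndt80Δ*). At *RAP1* they held 298 ± 105 HpM, against 126 ± 3.99 in *sae2Δ tel1Δ*. Calls of regulators were not followed through the other settings.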

How the data were processed

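The authors aligned CC-seq reads with Bowtie2 through TermMapper to SacCer3H4L2 (R64 with *HIS4*::*LEU2* and *leu2*::*hisG* inserted on chromosome III) and deposited raw counts of Read 1 ends at each base of each strand, without normalisation. A mapping-quality filter and a step for duplicate reads are not given in the sources used here. Reads are not independent molecules, so Poisson intervals cover counting error only. Libraries of 1 replicate number were summed. Genes came from a RefSeq table of R64, and 24 windows that were incomplete or touched the rDNA were dropped.

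Counts were fitted in R 4.3.3 with edgeR 4.0.16 (glmQLFit, glmQLFTest, filterByExpr), all 18 replicates in 1 model, genotype as the only term, library size the nuclear reads outside the rDNA, and Benjamini-Hochberg adjustment over 5779 promoters or 5782 ORFs at 0.05. The surroundings test used the reads within 25 kb either side as offset. DESeq2 1.42.0 was an alternative. Levels and figures were made with matplotlib 3.10.9, scipy 1.17.1, pandas 2.3.3 and numpy 2.4.6 under Python 3.11.15. The promoter fit was tried on simulated counts with changes placed in *sae2Δ tel1Δ* only. That simulation held no time-course, background or regional differences, so it cannot show how calls depend on these.

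Background came from 49 ORFs over 5.5 kb, chosen after the data were seen by leaving out *TEL1* and ORFs within 20 kb of chromosome ends from 55. Members, lists and tests were chosen with earlier results of these data known. Named genes were the 6 highest and 3 lowest promoters, the 2 largest called changes each way per comparison, the 3 highest ORFs, the 3 widest and 2 closest pairs, members called in the interaction and the 2 highest in the control. Others named were chosen after their values were seen. Same-numbered replicates of different genotypes correlated from -0.63 to 0.77 (median 0.26, over 0.1 in 12 of 22 pairs). Those of unlike number correlated from -0.80 to 0.86 (median -0.04, over 0.1 in 36 of 99 pairs). Such wide ranges cannot decide whether numbers pair samples, so the replicate number was a block only as an alternative. Alternatives chosen after seeing the data were the blocks for each time course and the shared time courses alone, leaving out the 3 replicates of highest background, subtraction from totals, the unsubtracted position, the chromosome II arm, and the window and leave-out settings for ratios, pairs and positions. One pair that these rules name is not reported here. Motifs and exon-only ORFs were not run, as no genome sequence was used here.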

Additional observations from a re-analysis of the deposited data

Results flagged for a closer look

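In 9 of 116 groups checked (the named promoters and summary values, by genotype), 1 replicate stood apart from the others by more than Dixon's criterion allows, and chance alone gives about 1 in 20. In *sae2Δ ndt80Δ tel1Δ*, replicate 4 (55.3% background) was low at *RPL15B* (383 HpM, others 774 to 915), low at *RPL7B* (219 HpM, others 298 to 329) and high at *RPL30* (192 HpM, others 98.1 to 110). In *sae2Δ ndt80Δ*, replicate 1 (62.3% background) was low at *RPL43A* (427 HpM, others 827 to 862), and replicate 4 (6.55% background) was high at *RPL4B* (188 HpM, others 60.3 to 65.8) and low at *RPS7B* (32 HpM, others 48.2 to 50.4). In *sae2Δ tel1Δ*, replicate 1 (25.8% background) was low at *RPS24A* (12.9 HpM, others 22.5 to 23.7). These 7 cases are the replicates of highest or lowest background in their genotype, and the part of background in them was not tested.

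In *sae2Δ*, replicate 1 was high at *RPL27A* (79.9 HpM, others 63.7 to 67.2) and replicate 5 was high at *RPL42B* (88.1 HpM, others 60.3 to 67.4). Background was 25% in replicate 1 and 20.3% in replicate 5.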

How the results depend on the processing

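The counts of called members are given for *tel1* deletion with Ndt80 (36), *tel1* deletion without Ndt80 (43), *ndt80* deletion with Tel1 (0), *ndt80* deletion without Tel1 (11) and the interaction (0). Of all promoters, 24.1%, 23.5%, 0%, 13.1% and 0.0346% were called there, and percentages in brackets below are also shares of all promoters called. With each time course as a block the counts became 67, 83, 38, 83 and 54 (47.0%, 53.7%, 11.6%, 52.8% and 38.6%). Without the time-course replicates they were 72, 82, 34, 90 and 69 (51.6%, 56%, 11.2%, 59.5% and 50.6%). A block for library series gave 2, 45 and 4 in the last 3 (0.329%, 26.8% and 4.36%). A fit of the compared genotypes alone gave 85 and 16 in the first 2 (64.3% and 7.79%), and only the shared time courses gave 23 in the second (18.6%). Without the 3 replicates of highest background the third and the fourth were 1 and 73 (0.19% and 42.1%). Reads in all promoter windows as library size gave 7 rises and 12 falls, 19 in all, in the first (27.6%) and 1 in the interaction (2.02%). TMM gave 9 rises and 25 falls in the first (28.5%) and 1 in the interaction (1.92%). Background subtracted from counts gave 25 in the second (12.2%) and 5 in the fourth (9.34%), and subtracted from counts and totals 1 in the interaction (2.72%). DESeq2 gave 5, 17 and 7 in the last 3, where 26, 1081 and 489 of 5779 promoters were called higher and 85, 288 and 14 lower. Each library as its own replicate gave 22 and 1 in the last 2 (19.9% and 2.28%). In the fourth, a 300 bp window and window bases in no ORF gave 7 each (10.1% and 10.2%). The replicate number as a block gave 36, 43, 0, 6 and 0 (20.2%, 23%, 0%, 7.79% and 0%). Relative to surroundings it gave 0, 1, 0, 0 and 0 (0.208%, 0.588%, 0%, 0.0519% and 0%). Whether replicate numbers pair the samples was not settled.

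Relative to surroundings the counts were 10, 1, 0, 2 and 0 (8.69%, 1.73%, 0%, 2.72% and 0.0173% of all promoters). Time-course blocks gave 52, 21, 20, 63 and 29 (40.3%, 14.2%, 5.07%, 30.8% and 23.2%). Leaving those replicates out gave 52, 17, 20, 59 and 29 (40.7%, 13.7%, 2.13%, 35.1% and 30%). Without the 3 replicates of highest background the first, the second and the fourth were 30, 6 and 49 (27.1%, 6.38% and 29.7%). Background subtraction gave 5, 5, 13 and 1 in all but the third (11.6%, 11.6%, 13.9% and 0.197%). Distances of 10 kb gave 0 and 1 (0.831% and 1.16%), and 50 kb 3 and 6 (2.42% and 3.74%), in the second and the fourth.

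The share of reads (1.18%, 0.997%, 0.96% and 0.854% in *sae2Δ*, *sae2Δ ndt80Δ*, *sae2Δ tel1Δ* and *sae2Δ ndt80Δ tel1Δ*) was 0.76%, 0.62%, 0.58% and 0.55% with 300 bp windows, 1.57%, 1.37%, 1.32% and 1.16% with 1000 bp windows, 1.32%, 1.21%, 1.13% and 0.97% with background subtracted, 1.34%, 1.25%, 1.14% and 0.98% with background from all long ORFs, and 0.34%, 0.31%, 0.29% and 0.24% over unshared windows. The ratio of medians in *sae2Δ* went from 0.83 to 0.62 over bases in no ORF, and in *sae2Δ tel1Δ* from 0.78 to 0.65 there, 0.83 with 1000 bp windows, 0.68 with background subtracted and 0.85 over unshared windows. Pair counts over bases in no ORF are not given, because values per bp were cut at a floor set for whole windows. The median position of 238 bp became 263 bp without background subtraction in 3 genotypes (all but *sae2Δ ndt80Δ*, at 263 bp already), and in *sae2Δ ndt80Δ tel1Δ* without the 3 replicates of highest background.

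Leaving out 1 replicate at a time gave 28 to 41, 32 to 68, 0 to 4, 5 to 53 and 0 to 15 calls, 2 to 16, 1 to 9, 0 to 10, 0 to 33 and 0 to 7 relative to surroundings, and 0 for ORFs. At the upper ends, 26.6%, 37.4%, 2.58%, 29.3% and 12.7% of all promoters were called, and 15.5%, 6.28%, 5.92%, 15.4% and 4.65% relative to surroundings. Shares ranged from 1.16% to 1.20%, 0.95% to 1.06%, 0.95% to 0.98% and 0.81% to 0.88%, ratios of medians from 0.82 to 0.85, 0.70 to 0.80, 0.76 to 0.79 and 0.59 to 0.70, pairs over 2-fold apart from 22 to 24, pairs with 1 copy higher throughout from 31 to 32, and positions from 238 bp to 263 bp in *sae2Δ tel1Δ* and *sae2Δ ndt80Δ tel1Δ*. The count of the fourth comparison was 5 to 7 without any of 9 single replicates.

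No gene named by the rules above reversed its direction where it was called. Genes named outside those rules, such as the regulators, were not followed in this way. The median log2 ratio over members changed sign for *tel1* deletion with Ndt80 (-0.10 as reported; 0.22 with reads in all promoter windows as library size, 0.07 with TMM, 0.01 with DESeq2), for *ndt80* deletion with Tel1 (-0.05; 0.18 with that library size) and for the interaction (-0.22; 0.28 with background subtracted from counts). Relative to surroundings it did so for *tel1* deletion with Ndt80 (-0.07; 0.12 with background subtracted) and for the interaction (-0.06; 0.02 with the replicate block). Interaction calls were 7 higher and 0 lower in DESeq2 and 12 higher and 42 lower with time-course blocks. Among named genes, 35 results no longer passed under another setting and 278 kept their side of the threshold, and with 1 replicate left out the numbers were 39 and 285. Where a cause is not given above, the cause was not tested. The unreplicated control, the depth of 1562673 reads in the smallest library and the background of up to 62.3% limit what weak promoters can show.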
